A study of Homo sapiens with 12 samples.

Results

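Small RNA host genes are transcribed as long RNAs whose introns or exons carry small nucleolar RNAs (snoRNAs) or microRNAs. Members were taken by gene name, as GAS5, the SNHG genes (snoRNA host genes) and the MIR genes whose names end in HG (microRNA host genes), with a mean raw count over the 12 libraries of at least 10. Of 94 such names among the 52859 genes of the count table, 43 were members: 24 snoRNA hosts out of 29 names and 19 microRNA hosts out of 65 names. The mean count chose the members and is given here as a description. SNHG28, MIR181A2HG and SNHG22 lay just inside the minimum, with mean counts of 10.1, 10.3 and 10.8, and SNHG31, MIR3936HG and MIR497HG just outside it, with 8.67, 7.92 and 7.25. All 43 members also passed the filter on low counts of the test across 16051 genes. Among the names left out, MIR22HG and MIR31HG had 0 counts in every library, and MIR155HG, the host of an inflammation-linked microRNA, had 1 count in an mtAsn-2 library and 1 in an mtLys library.

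The libraries came from MDA-MB-231, an established human breast cancer line that lacks the estrogen and progesterone receptors. Lipofectamine carried into the cells 20 nM of a locked nucleic acid (LNA), a stabilised antisense oligonucleotide, and RNA was taken on day 2. The groups were mtAsn-1 and mtAsn-2, which are separate LNAs against the mitochondrial asparagine tRNA, mtLys, an LNA against the mitochondrial lysine tRNA, and a control LNA, with 3 libraries each. All groups therefore share the lipid reagent and an LNA, and no untransfected cells were analysed here. Totals ran from 17978825 to 37708993 counts per library. Levels are given in CPM, counts scaled to an effective library size. The mesenchymal marker VIM lay between 2954 and 3879 CPM in all libraries, and ESR1, PGR and CDH1 never passed 0.523 CPM. Of the other markers listed as low or absent in this line, EPCAM lay between 3.45 and 6.21 CPM. ERBB2 was higher, between 89.4 and 119.6 CPM, so its RNA was not absent. Of the markers of other cells, the leukocyte gene PTPRC reached at most 0.343 CPM and the endothelial genes CDH5 and PECAM1 0.0325 and 18.1 CPM. Fold changes, their standard errors (SE) and adjusted p-values come from edgeR's quasi-likelihood test, fitted once to the 12 libraries. Benjamini-Hochberg adjustment ran over all 16051 genes, and a gene was called at adjusted p under 0.05. Whether replicates were separate cultures is not in the labels, and the p-values reflect only library-to-library spread, which may be technical. The 3 comparisons against control share the control libraries.

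As background, snoRNAs with C and D boxes guide ribose methylation of ribosomal RNA, snoRNAs with H and ACA boxes guide pseudouridine formation, and the related scaRNAs act on spliceosomal RNAs in Cajal bodies. Most are cut from introns after splicing. The spliced RNA of many SNHG genes has only short reading frames and is a classic substrate of nonsense-mediated decay, the pathway that removes RNAs with early stop codons in step with translation. Many snoRNA host genes also begin with a terminal pyrimidine tract like that of ribosomal protein genes. MicroRNA hosts are cut by DROSHA in the nucleus, and the hairpin is trimmed by DICER1 and loaded into an Argonaute protein, where bases 2 to 8 of the microRNA, the seed, select targets. Libraries of the kind used here report the host RNA, not the mature microRNA.

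The snoRNA hosts were named by the small RNAs within their annotated spans. C/D snoRNAs alone lay in 9 hosts (SNHG29, SNHG5, SNHG1, SNHG16, SNHG6, SNHG19, SNHG30, SNHG25 and SNHG26), H/ACA snoRNAs alone in 8 (SNHG7, SNHG3, SNHG8, SNHG17, SNHG15, SNHG4, SNHG11 and SNHG9), both kinds in GAS5 and SNHG12, and scaRNAs in 4 (SNHG10, SNHG20, SNHG21 and SNHG22). The span of SNHG28 held none. The start regions of the hosts with the deepest falls and of 2 hosts that rose are shown to set their pyrimidine tracts side by side. Each window is 40 bases of the sense strand, with 15 bases before the annotated start and 25 from it on (RefSeq, GRCh38.p14), and capitals mark the longest stretch of C and T counted from a C within 10 bases of the start, whether or not pyrimidines precede that C. The hosts that fell were SNHG19 (chr16:2155334-2155373, minus strand), SNHG20 (chr17:77088628-77088667, plus strand), SNHG10 (chr14:95534848-95534887, minus strand) and SNHG21 (chr15:82750549-82750588, plus strand). The hosts that rose were SNHG5 (chr6:85678709-85678748, minus strand) and SNHG8 (chr4:118278747-118278786, plus strand).
SNHG19: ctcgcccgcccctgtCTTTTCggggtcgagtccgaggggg
SNHG20: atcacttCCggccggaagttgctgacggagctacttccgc
SNHG10: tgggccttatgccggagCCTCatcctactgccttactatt
SNHG21: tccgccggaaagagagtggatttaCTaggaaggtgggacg
SNHG5: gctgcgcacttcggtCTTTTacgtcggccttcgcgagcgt
SNHG8: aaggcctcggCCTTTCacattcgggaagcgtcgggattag

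Counted this way, the stretch was 6, 2, 4 and 2 bases long in SNHG19, SNHG20, SNHG10 and SNHG21, and 5 and 6 bases long in SNHG5 and SNHG8. In SNHG20 it is the end of a longer run of C and T that begins farther upstream. Promoter sequences matched 37 members, 20 snoRNA hosts and 17 microRNA hosts. A stretch of at least 5 bases, counted this way, stood near the start of 11 of the 20 snoRNA hosts (55%) and 10 of the 17 microRNA hosts (58.8%), against 33.3% of all 27305 promoters. In the 300 bases from 250 before to 50 after the start, searched on both strands, the GC box GGGCGG was found in 15 snoRNA hosts (75%) and 7 microRNA hosts (41.2%), against 44.6% of all promoters. The letters TATAAA were found in 4 snoRNA hosts (20%) and no microRNA host, against 12% of all promoters. Such matches describe the letters in these windows only. For SNHG12, GAS5, SNHG4, SNHG17, MIR100HG and MIR17HG the start in the promoter table differed from that of the count table by 49 to 322025 bases.

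The summed counts of the snoRNA hosts took a smaller share of each library with every tRNA LNA. They held 0.107% to 0.110% of counts in the mtAsn-1 libraries, 0.1196% to 0.1245% in mtAsn-2 and 0.0988% to 0.102% in mtLys, against 0.133% to 0.138% in control. The ranges of the 4 groups did not overlap. MicroRNA hosts held 0.0192% to 0.0219% with mtAsn-1, 0.0155% to 0.0164% with mtAsn-2 and 0.0192% to 0.0196% with mtLys, against 0.0160% to 0.0176% with control. Here mtAsn-1 and mtLys lay above control and mtAsn-2 overlapped it. Both sums lean on the best counted hosts. These are MIR100HG and MIR4435-2HG among microRNA hosts, with mean counts of 1641 and 1406, and SNHG29 among snoRNA hosts, with 10700. In bulk RNA, fewer cells of a type and less RNA per cell cannot be told apart.

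**Figure D1:**
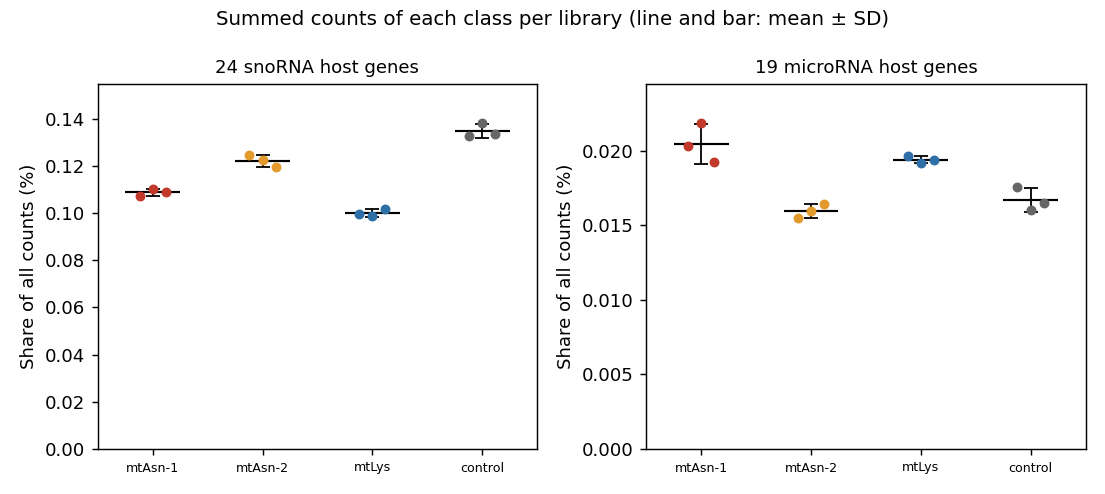
Share of all counts (%) held by the 24 snoRNA hosts (left) and the 19 microRNA hosts (right) in each library of mtAsn-1, mtAsn-2, mtLys and control. Points are libraries, and the line and bar give the mean ± SD of 3. Control stands highest for snoRNA hosts at 0.133% to 0.138%, while mtAsn-1 and mtLys stand highest for microRNA hosts.

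Most snoRNA hosts were lower than control with each tRNA LNA. With mtAsn-1, 18 of 24 fell and 2 rose, where 24.2% of all genes tested fell and 24.3% rose (48.5% called either way). With mtAsn-2, 15 fell and 4 rose, where 27% of all genes fell and 24.1% rose (51.1% either way). With mtLys, 19 fell and 1 rose, where 23.9% of all genes fell and 24.6% rose (48.5% either way). The median log2 fold changes over the 24 hosts were -0.43, -0.36 and -0.47 in that order, where the median over all genes lay within 0.01 of 0. The 15 hosts called lower with every tRNA LNA were GAS5, SNHG1, SNHG3, SNHG4, SNHG7, SNHG9, SNHG10, SNHG11, SNHG19, SNHG20, SNHG21, SNHG25, SNHG26, SNHG29 and SNHG30.

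**Figure D2:**
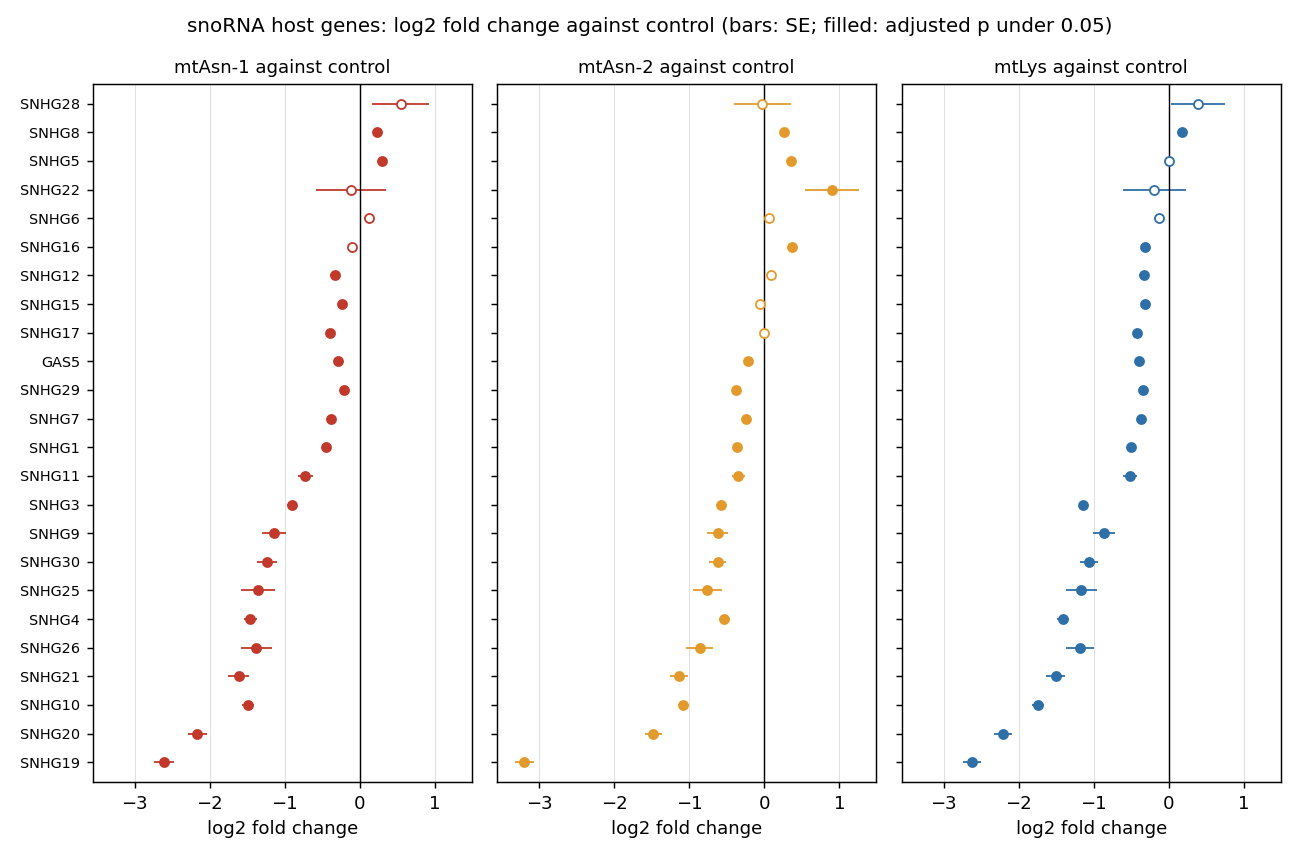
Log2 fold change against control of the 24 snoRNA hosts (rows, ordered by their mean over the 3 comparisons) with mtAsn-1, mtAsn-2 and mtLys. Bars are SE and filled points have adjusted p under 0.05. SNHG19 lies lowest in each panel, at -2.61, -3.20 and -2.63, and SNHG5 and SNHG8 lie right of 0 with both mtAsn LNAs.

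SNHG19, a short gene whose intron holds the C/D snoRNA SNORD60 (chr16:2154782-2155358, minus strand, 357 exon bases, hg38), had the largest fall. It stood at 6.85, 6.63 and 5.71 CPM in the mtAsn-1 libraries, at 3.66, 4.22 and 4.81 CPM in mtAsn-2 and at 6.15, 5.65 and 7.15 CPM in mtLys, against 43.6, 41.1 and 30.6 CPM in control. Every library with a tRNA LNA was far below every control library, and the third control library was the lowest of its group. The means were 16.6%, 11% and 16.4% of the control mean. Its log2 fold changes were -2.61 (SE 0.13, adjusted p = 2.29e-11), -3.20 (SE 0.13, adjusted p = 6.8e-13) and -2.63 (SE 0.12, adjusted p = 7.75e-12). SNHG19 was the only snoRNA host called lower in mtAsn-2 than in mtLys (-0.57, SE 0.16, adjusted p = 0.0057), and it was higher in mtAsn-1 than in mtAsn-2 (0.59, SE 0.17, adjusted p = 0.00834).

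The scaRNA hosts came next. SNHG20, which spans SCARNA16 and the microRNA gene MIR6516 (chr17:77088643-77094986, plus strand), stood at 2.91, 2.63 and 3.05 CPM with mtAsn-1, at 4.51, 5.22 and 4.23 CPM with mtAsn-2 and at 2.78, 2.99 and 2.57 CPM with mtLys, against 11.7, 15.2 and 11.7 CPM with control. All LNA libraries lay below all control libraries, and the mtAsn-2 libraries lay above those of mtAsn-1 and mtLys. The fold changes were -2.17 (SE 0.13), -1.48 (SE 0.11) and -2.22 (SE 0.12), each with adjusted p of 5.79e-12 or smaller. SNHG10, the host of SCARNA13 (chr14:95532912-95534872, minus strand), stood at 7.29, 7.72 and 8.26 CPM with mtAsn-1, at 10.7, 10.8 and 9.68 CPM with mtAsn-2 and at 6.77, 6.12 and 6.78 CPM with mtLys, against 21.9, 22.7 and 21.1 CPM with control. Again no group overlapped control, and mtAsn-2 took the middle place, with log2 fold changes of -1.49, -1.08 and -1.74. SNHG21, the host of SCARNA15, stood at 2.27, 2.12 and 1.83 CPM with mtAsn-1, at 2.89, 2.50 and 3.20 CPM with mtAsn-2 and at 2.21, 2.23 and 2.20 CPM with mtLys, against 6.13, 6.27 and 6.52 CPM with control. Control again lay wholly above the LNA groups, and SNHG21 fell by 1.62, 1.13 and 1.51 on the log2 scale, the largest adjusted p being 5.61e-09. SNHG22, the host of SCARNA17 and the rarest scaRNA host, did not share this direction. Its counts gave 0.296, 0.343 and 0.252 CPM with mtAsn-1, 0.881, 0.406 and 0.457 CPM with mtAsn-2 and 0.297, 0.264 and 0.261 CPM with mtLys, against 0.448, 0.228 and 0.267 CPM with control. It was called higher in the mtAsn-2 group (0.90, SE 0.36, adjusted p = 0.0374), where 1 library of mtAsn-2 stood well above the rest and the groups overlapped. Without that library, mtAsn-2 replicate 1, the value was 0.46 (adjusted p = 0.358), and the call was also lost without control replicate 2 (0.66, adjusted p = 0.194), without control replicate 3 (0.83, adjusted p = 0.0902) and with DESeq2 (adjusted p = 0.174).

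**Figure D3:**
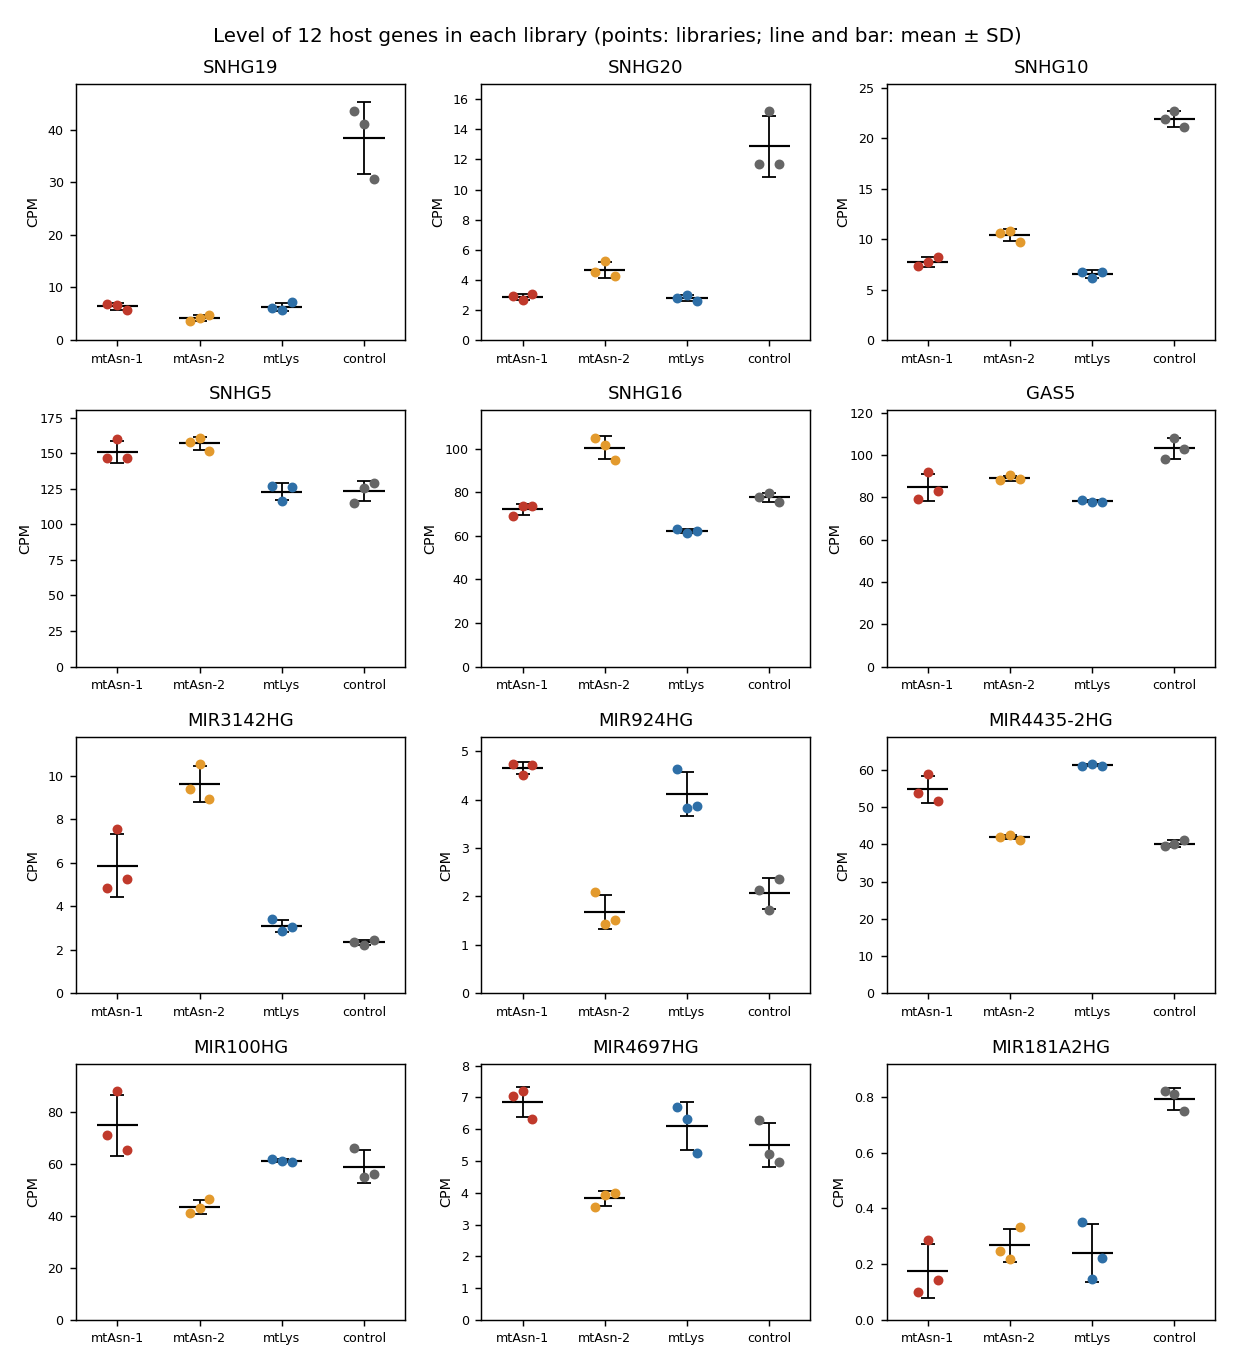
Level (CPM) of 12 host genes in each library of mtAsn-1, mtAsn-2, mtLys and control. Points are libraries, and the line and bar give the mean ± SD of 3. SNHG19, SNHG20 and SNHG10 are highest in control, SNHG16 and MIR3142HG are highest with mtAsn-2, and MIR924HG and MIR4435-2HG are high with mtAsn-1 and mtLys.

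SNHG4, SNHG3 and SNHG9, hosts of H/ACA snoRNAs, fell with each tRNA LNA. SNHG4, the host of the U19 snoRNA SNORA74A, stood at 8.03, 6.69 and 7.80 CPM with mtAsn-1, 14.2, 15.3 and 13.6 CPM with mtAsn-2 and 7.93, 7.70 and 7.82 CPM with mtLys, against 19.6, 22.5 and 20.2 CPM with control. Its fall was about as deep with mtAsn-1 (-1.46, SE 0.09) as with mtLys (-1.41, SE 0.08) and smaller with mtAsn-2 (-0.54, SE 0.07). The direct difference for SNHG4 between mtAsn-2 and mtLys was 0.88 (SE 0.08, adjusted p = 5.77e-10). SNHG3, the host of the U17 snoRNAs SNORA73A and SNORA73B, averaged 41.3 ± 2.86, 52.5 ± 1.89 and 35.3 ± 2.23 CPM with mtAsn-1, mtAsn-2 and mtLys, against 77.7 ± 6.32 CPM with control (SD, n = 3 each). No library of SNHG3 with a tRNA LNA reached the control range, and its log2 fold changes were -0.91, -0.57 and -1.14. SNHG11 and SNHG9 fell under each LNA as well, at -0.73, -0.35 and -0.52 for SNHG11 and -1.14, -0.62 and -0.86 for SNHG9. The rarer C/D hosts fell as deeply, with log2 fold changes of -1.23, -0.62 and -1.06 for SNHG30, -1.35, -0.76 and -1.16 for SNHG25 and -1.38, -0.86 and -1.18 for SNHG26.

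Several abundant hosts fell by less. Over the 12 snoRNA hosts highest in mean CPM, the median log2 fold changes were -0.26, -0.03 and -0.34 with mtAsn-1, mtAsn-2 and mtLys. Over the other 12 they were -1.37, -0.69 and -1.17. Mean CPM here covers all 12 libraries, so a deep fall itself lowers a host's place. SNHG19, at 38.4 CPM in control, was among the lower 12. SNHG12 and SNHG6, among the upper 12, had 36.4 and 28.8 CPM in control. The split therefore does not test whether hosts abundant in control fell by less. GAS5, the growth-arrest gene whose span holds 11 snoRNA genes (chr1:173863899-173868882, minus strand), stood at 79.2, 92.0 and 83.0 CPM with mtAsn-1, 88.0, 90.5 and 88.6 CPM with mtAsn-2 and 78.6, 78.0 and 78.0 CPM with mtLys, against 98.2, 108 and 103 CPM with control. Every control library of GAS5 was above every LNA library, though the nearest pair was 92.0 and 98.2 CPM. The log2 fold changes were -0.29 (SE 0.05, adjusted p = 2.05e-05), -0.21 (SE 0.05, adjusted p = 0.000478) and -0.40 (SE 0.05, adjusted p = 8.84e-08). SNHG1, the U22 host gene with 8 C/D snoRNA genes, stood at 95.0, 95.1 and 103 CPM with mtAsn-1, 107, 105 and 101 CPM with mtAsn-2 and 94.2, 94.9 and 95.2 CPM with mtLys, against 124, 146 and 133 CPM with control. The SNHG1 groups did not overlap control, and the falls were -0.46, -0.37 and -0.50. SNHG29, the most counted member, stood at 381, 396 and 383 CPM with mtAsn-1, 350.0, 341 and 339 CPM with mtAsn-2 and 347, 347 and 362 CPM with mtLys, against 444, 440.2 and 454 CPM with control. Control was again highest without overlap (log2 fold changes -0.20, -0.38 and -0.34). SNHG7, an H/ACA host, fell by 0.38, 0.24 and 0.37.

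A few hosts went another way. SNHG5, the host of the U50 snoRNAs SNORD50A and SNORD50B, stood at 147, 160 and 146 CPM with mtAsn-1, 158, 161 and 152 CPM with mtAsn-2 and 127, 116 and 126 CPM with mtLys, against 115, 126 and 129 CPM with control. Both mtAsn groups lay wholly above control and mtLys overlapped it. SNHG5 rose in mtAsn-1 cells (log2 fold change 0.29, SE 0.05, adjusted p = 1.2e-05) and mtAsn-2 cells (0.35, SE 0.05, adjusted p = 4.61e-07), and its value in mtLys cells was -0.00 (SE 0.05, adjusted p = 0.974). The direct tests also set it higher with mtAsn-1 than with mtLys (0.29, adjusted p = 0.000317) and higher with mtAsn-2 than with mtLys (0.35, adjusted p = 4.14e-07). SNHG8, the host of SNORA24, was the only member of the class called higher with all 3 LNAs. It stood at 43.4, 48.0 and 49.2 CPM with mtAsn-1, 48.7, 47.6 and 47.8 CPM with mtAsn-2 and 44.6, 43.7 and 47.3 CPM with mtLys, against 39.8, 40.9 and 39.2 CPM with control. Its groups did not overlap control, and the rises were 0.23, 0.26 and 0.17. The smallest of these, with mtLys, had adjusted p = 0.00747, and adjusted p = 0.0518 when the third mtLys library was left out.

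SNHG16, the host of SNORD1A, SNORD1B and SNORD1C, separated the LNAs. It stood at 68.9, 73.7 and 73.6 CPM with mtAsn-1, 105, 102 and 94.9 CPM with mtAsn-2 and 63.2, 61.4 and 62.1 CPM with mtLys, against 77.9, 79.6 and 75.3 CPM with control. The mtAsn-2 libraries lay above control and the others below it, without overlap. In the test SNHG16 rose in mtAsn-2 cells (0.37, SE 0.05, adjusted p = 9.14e-08), fell in mtLys cells (-0.32, SE 0.05, adjusted p = 2.01e-06) and was not called in mtAsn-1 cells (-0.11, adjusted p = 0.0638). SNHG12, SNHG15 and SNHG17 fell with mtAsn-1 (-0.33, -0.24 and -0.40) and with mtLys (-0.33, -0.32 and -0.43). With mtAsn-2 they stood at 0.08, -0.06 and -0.00 and were not called. Each of these 3 genes was lower with mtAsn-1 than with mtAsn-2, by 0.41, 0.18 and 0.39, with adjusted p of 0.00971 or smaller, though SNHG15 was not called without mtAsn-2 replicate 1 (adjusted p = 0.0619). SNHG6 and SNHG28 were called in no comparison against control.

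Exons of 13 snoRNA hosts share bases with another annotated gene, and the sources used here do not say whether the counting used strand. Of the 11 hosts that share none, 8 were called lower and 2 higher in mtAsn-1 cells, and 6 and 3 in mtAsn-2 cells. In mtLys cells 9 were lower and 1 higher, and SNHG19 was among those lower with each LNA. Among all genes 24.2% were lower and 24.3% higher in mtAsn-1 cells, and 27% and 24.1% in mtAsn-2 cells. The shares in mtLys cells were 23.9% and 24.6%. Of the sharing genes, RCC1, which shares 10.7% of the exon bases of SNHG3 on the same strand, was higher than control while SNHG3 was lower, at 0.23, 0.63 and 0.20 with mtAsn-1, mtAsn-2 and mtLys. MATR3, which shares 38.9% of SNHG4 on the same strand, stood at -0.15, -0.25 and -0.21, and SEC14L1, which shares 22.5% of SNHG20, at -0.20, -0.95 and -0.10. Those shifts were smaller than those of SNHG4 and SNHG20. FSD2, on the opposite strand to SNHG21 with 34.1% of its exon bases, stood at -1.37, -0.93 and -1.68, close to the host's -1.62, -1.13 and -1.51. MYO5B, opposite SNHG22 with 5.14% of its exon bases shared with it and SCARNA17, was 0.84 higher with mtAsn-2, where SNHG22 was 0.90 higher. The part of shared reads in these values was not tested.

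Reads counted at the snoRNA genes can be set beside those of their hosts, but they are not a measure of the mature snoRNAs alone. The spans of the snoRNA hosts hold 51 snoRNA genes, of which 31 in 13 hosts had enough reads for the test, all in introns of the host. Reads there can come from the snoRNA or from unspliced host RNA. In mtAsn-1 cells 6 of the 31 fell and none rose against control, in mtAsn-2 cells 2 fell and 1 rose, and in mtLys cells 9 fell and none rose. Among all genes 24.2% fell and 24.3% rose in mtAsn-1 cells, 27% fell and 24.1% rose in mtAsn-2 cells, and 23.9% fell and 24.6% rose in mtLys cells. Of these snoRNA calls, 3 of 6, 2 of 3 and 1 of 9 were kept under every alternative that tested the gene. In hosts called lower with mtAsn-1, 20 of 28 snoRNA genes had a fold change above that of the host, and this held for 18 of 22 with mtAsn-2 and 18 of 28 with mtLys. Many of these genes lie in GAS5 or SNHG1 and share a host value, so they are not independent. The hosts were also picked by their own calls in the same comparison. These counts therefore do not test whether snoRNA genes fell less than hosts. The sequences of 2 snoRNAs from hosts that fell deeply are shown with the C box motif (GTGATGA) and the D box motif (CTGA) in capitals, read 5′ to 3′ from GENCODE transcripts. SNORD60 lies at chr16:2155023-2155105 on the minus strand within SNHG19, and SNORD104 at chr17:64146083-64146152 on the plus strand within SNHG25.
SNORD60: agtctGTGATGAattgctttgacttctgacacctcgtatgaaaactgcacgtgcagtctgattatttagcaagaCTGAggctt
SNORD104: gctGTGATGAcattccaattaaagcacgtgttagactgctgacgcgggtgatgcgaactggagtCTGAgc

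SNORD60 was thinly covered, with 13, 14 and 21 reads in the mtAsn-1 libraries, 14, 20 and 14 in those of mtAsn-2 and 31, 15 and 20 in those of mtLys, against 26, 30 and 16 with control. Its log2 fold changes were -0.36 (SE 0.28), -0.98 (SE 0.27, adjusted p = 0.00356) and -0.48 (SE 0.26), each smaller in size than those of SNHG19. SNORD104, the better covered of the pair, had 136, 96 and 176 reads in the mtAsn-1 libraries, 254, 230 and 276 in those of mtAsn-2 and 240, 206 and 178 in those of mtLys, against 218, 243 and 140 with control. On the CPM scale it averaged 6.17 ± 0.62, 7.53 ± 0.76 and 6.38 ± 0.31 CPM, against 7.84 ± 0.33 CPM with control. The SNORD104 groups were closer to control than those of SNHG25. SNORD104 stood at -0.34 with mtAsn-1 (adjusted p = 0.00909), where SNHG25 stood at -1.35. In mtAsn-2 cells it was not called (-0.07, adjusted p = 0.602), where SNHG25 stood at -0.76, and in mtLys cells it stood at -0.30 (adjusted p = 0.0125), where SNHG25 stood at -1.16. The call of SNORD104 in mtLys cells was lost without mtLys replicate 2 (-0.26, adjusted p = 0.0598). The snoRNA genes of SNHG17 differed among themselves, with the host at -0.40 with mtAsn-1 and -0.43 with mtLys. SNORA71A stood at -1.43 with mtAsn-1 and -0.998 with mtLys, and SNORA71B at -1.16 and -1.28. SNORA71C stood at 0.10 with mtAsn-1 (adjusted p = 0.688) and -0.56 with mtLys (adjusted p = 0.0142). Of these calls, that of SNORA71A with mtAsn-1 and that of SNORA71B with mtLys were kept under every alternative that tested the gene. These near-identical copies lie in the same gene, so how their reads were shared out is uncertain, as it is for SNORA73A and SNORA73B. SNORD74 of GAS5 fell by 0.87 with mtAsn-1 and SNORD49A of SNHG29 by 1.10 with mtAsn-2. SNORA73A, within SNHG3, was the only tested snoRNA gene called higher than control with any LNA, at 0.86 with mtAsn-2 (adjusted p = 0.037). It had 140, 62 and 50 reads in the mtAsn-2 libraries, against 36, 38 and 29 in the control libraries. In CPM the groups overlapped and mtAsn-2 replicate 1 stood above the rest. Without mtAsn-2 replicate 1 the fold change was 0.36 and the call was lost (adjusted p = 0.207), and the call was also lost when any 1 control library was left out (adjusted p = 0.0616 to 0.123).

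**Figure D4:**
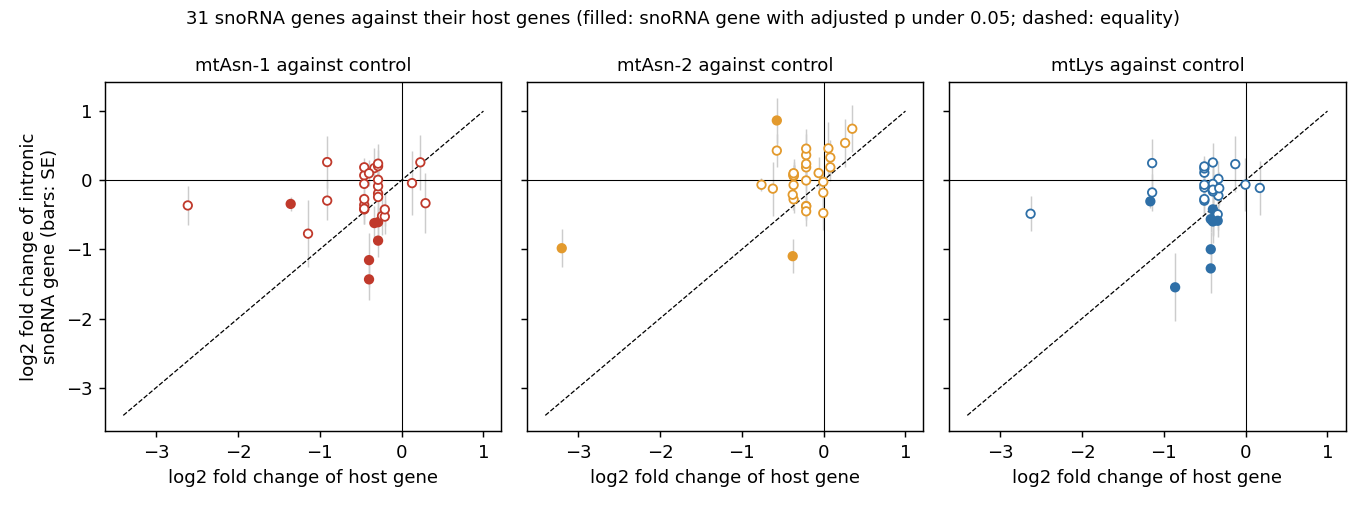
Log2 fold change against control of 31 intronic snoRNA genes (y axis, bars SE) against that of their host gene (x axis) with mtAsn-1, mtAsn-2 and mtLys. Filled points are snoRNA genes with adjusted p under 0.05, and the dashed line marks equal change. SNORD60 is the leftmost point of each panel, at -0.36, -0.98 and -0.48 while its host SNHG19 is below -2.6.

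MicroRNA hosts were called in both directions. Calls leaned to higher in mtAsn-1 cells, at 42.1% higher and 15.8% lower. They leaned to lower in mtAsn-2 cells, at 36.8% lower and 21.1% higher. The mtLys group had 31.6% higher and 21.1% lower. Whether such shares differ from those of all genes was not tested. In mtAsn-1 cells 8 of 19 rose and 3 fell, in mtAsn-2 cells 4 rose and 7 fell, and in mtLys cells 6 rose and 4 fell (among all genes 24.3% were higher and 24.2% lower in mtAsn-1 cells, 24.1% higher and 27% lower in mtAsn-2 cells, 24.6% higher and 23.9% lower in mtLys cells). The median log2 fold change over the 19 was 0.30, -0.26 and 0.15. MIR3142HG and MIR646HG were called higher with every tRNA LNA, and MIR181A2HG, MIR4458HG and MIR503HG lower with every one. MIR924HG, MIR3681HG and MIR4435-2HG were called higher with mtAsn-1 and mtLys only. The mature microRNAs of hosts that changed are printed with the seed, bases 2 to 8, in capitals, since shared seeds show which hosts feed the same target family (RefSeq, GRCh38.p14). They are grouped by host, in the order MIR3142HG, MIR924HG, MIR646HG, MIR4435-2HG, MIR181A2HG, MIR503HG, MIR4458HG, MIRLET7BHG, MIR100HG and MIR17HG.
hsa-miR-146a-5p: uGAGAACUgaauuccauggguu
hsa-miR-3142: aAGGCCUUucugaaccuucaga
hsa-miR-924: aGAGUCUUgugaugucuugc
hsa-miR-646: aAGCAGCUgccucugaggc
hsa-miR-4435: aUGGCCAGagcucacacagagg
hsa-miR-181a-5p: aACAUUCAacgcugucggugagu
hsa-miR-181b-5p: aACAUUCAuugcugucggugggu
hsa-miR-503-5p: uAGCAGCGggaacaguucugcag
hsa-miR-4458: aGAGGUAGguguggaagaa
hsa-let-7b-5p: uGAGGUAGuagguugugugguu
hsa-let-7a-5p: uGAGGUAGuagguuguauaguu
hsa-miR-100-5p: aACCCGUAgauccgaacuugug
hsa-miR-125b-5p: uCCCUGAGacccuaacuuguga
hsa-miR-17-5p: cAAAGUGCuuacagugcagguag
hsa-miR-20a-5p: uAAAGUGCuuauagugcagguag

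Member spans hold 36 microRNA genes with 62 mature microRNAs. The let-7 seed GAGGUAG is shared by let-7a, let-7b and miR-4458, and so by 3 hosts, MIR100HG, MIRLET7BHG and MIR4458HG. The miR-181 seed ACAUUCA stands on both microRNAs of MIR181A2HG, and the seed AAAGUGC on miR-17 and miR-20a of MIR17HG. These counts do not measure the mature microRNAs.

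**Figure D5:**
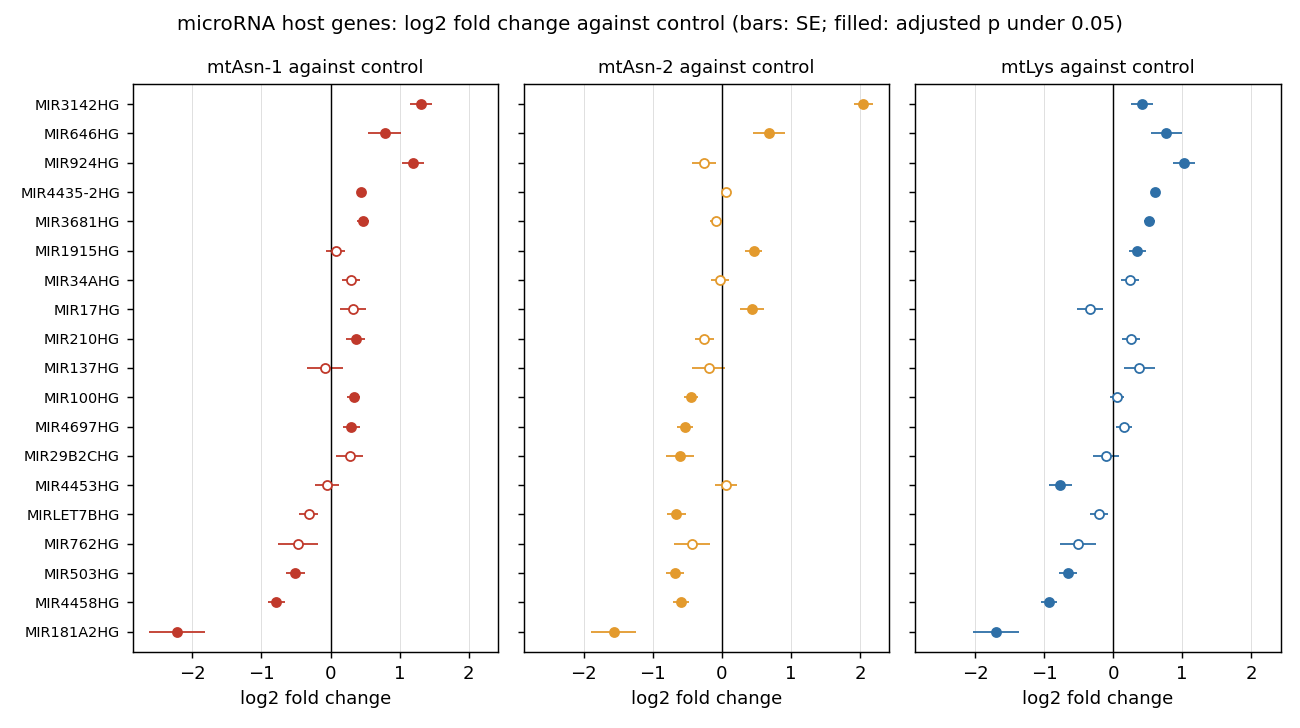
Log2 fold change against control of the 19 microRNA hosts (rows, ordered by their mean over the 3 comparisons) with mtAsn-1, mtAsn-2 and mtLys. Bars are SE and filled points have adjusted p under 0.05. MIR3142HG lies farthest right with mtAsn-2, at 2.05, and MIR181A2HG farthest left in each panel, at -2.22, -1.57 and -1.69.

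MIR3142HG, whose span holds miR-146a, a microRNA induced by NF-kB that represses IRAK1 and TRAF6, had the largest rise (chr5:160468251-160487426, plus strand). It stood at 4.83, 7.55 and 5.25 CPM with mtAsn-1, 9.39, 10.53 and 8.95 CPM with mtAsn-2 and 3.40, 2.87 and 3.05 CPM with mtLys, against 2.35, 2.21 and 2.46 CPM with control. No LNA library overlapped control, and the order was mtAsn-2, mtAsn-1, mtLys and control without overlap of neighbours. The rise was 1.31 in mtAsn-1 cells (SE 0.16, adjusted p = 6.64e-08) and 2.05 in mtAsn-2 cells (SE 0.14, adjusted p = 7.24e-13). With mtLys it was 0.42 (SE 0.16, adjusted p = 0.0333), a call that was lost when any of 4 libraries was left out, control replicate 1 (adjusted p = 0.0665), control replicate 2 (adjusted p = 0.119), mtLys replicate 1 (adjusted p = 0.132) or mtLys replicate 3 (adjusted p = 0.0531), and with DESeq2 (adjusted p = 0.0577). The direct difference of MIR3142HG was 0.89 for mtAsn-1 over mtLys (adjusted p = 0.000251) and 1.62 for mtAsn-2 over mtLys (adjusted p = 9.4e-12). Of its exon bases, 4.27% are those of MIR146A itself.

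MIR924HG, MIR4435-2HG and MIR3681HG had a second pattern, high with mtAsn-1 and mtLys and near control with mtAsn-2. MIR924HG stood at 4.73, 4.52 and 4.71 CPM with mtAsn-1, 2.09, 1.44 and 1.52 CPM with mtAsn-2 and 4.64, 3.84 and 3.87 CPM with mtLys, against 2.13, 1.72 and 2.35 CPM with control. The mtAsn-1 and mtLys libraries lay above all others, and mtAsn-2 overlapped control. Its log2 fold changes were 1.197 (SE 0.16, adjusted p = 4.75e-07), -0.26 (SE 0.18, adjusted p = 0.233) and 1.02 (SE 0.15, adjusted p = 3.05e-06). MIR4435-2HG, the human counterpart of the mouse RNA Morrbid that restrains the cell-death gene Bim in mouse myeloid cells, was the better counted of these genes. It stood at 53.9, 58.9 and 51.7 CPM with mtAsn-1, 42.0, 42.5 and 41.3 CPM with mtAsn-2 and 61.0, 61.5 and 61.2 CPM with mtLys, against 39.6, 40 and 41.2 CPM with control. It rose in mtAsn-1 cells (0.44, SE 0.05, adjusted p = 4.77e-08) and mtLys cells (0.61, SE 0.05, adjusted p = 6.03e-11), and the mtAsn-2 libraries, though just above control, were not called (0.06, adjusted p = 0.332). MIR3681HG stood at 19.8, 16.8 and 16.3 CPM with mtAsn-1, 11.5, 12.2 and 12.2 CPM with mtAsn-2 and 18.0, 17.5 and 19.6 CPM with mtLys, against 11.7, 13.2 and 13.2 CPM with control. MIR3681HG rose by 0.47 and 0.53 with mtAsn-1 and mtLys and stood at -0.08 with mtAsn-2. In the direct tests each of the 3 genes was higher with mtAsn-1 than with mtAsn-2, by 1.46 for MIR924HG, 0.38 for MIR4435-2HG and 0.55 for MIR3681HG, with adjusted p of 2.35e-06 or smaller. MIR646HG stood at 1.38, 1.60 and 1.51 CPM with mtAsn-1, 1.60, 1.56 and 1.004 CPM with mtAsn-2 and 1.59, 1.55 and 1.27 CPM with mtLys, against 1.08, 0.715 and 0.802 CPM with control. Its rises of 0.78, 0.68 and 0.77 had adjusted p of 0.00843, 0.0131 and 0.00547, and none of the 3 calls held without control replicate 2 (adjusted p = 0.0631, 0.097 and 0.0535). Its mtAsn-2 call was also lost without mtAsn-2 replicate 1 (adjusted p = 0.0675) or 2 (adjusted p = 0.0519) and with DESeq2 (adjusted p = 0.0539).

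The falls were led by MIR181A2HG, the host of miR-181a and miR-181b and the rarest microRNA host. It stood at 0.0985, 0.286 and 0.144 CPM with mtAsn-1, 0.248, 0.219 and 0.335 CPM with mtAsn-2 and 0.351, 0.147 and 0.223 CPM with mtLys, against 0.822, 0.812 and 0.748 CPM with control. All LNA libraries lay below all control libraries, and the LNA groups overlapped each other. Its log2 fold changes were -2.22 (SE 0.40, adjusted p = 4.16e-05), -1.57 (SE 0.32, adjusted p = 0.00017) and -1.69 (SE 0.33, adjusted p = 0.000109). With a mean count over 12 libraries of 10.3, these rest on few reads. MIR4458HG stood at 4.39, 4.06 and 4.35 CPM with mtAsn-1, 4.57, 5.25 and 4.84 CPM with mtAsn-2 and 3.99, 3.11 and 4.58 CPM with mtLys, against 7.36, 7.60 and 7.06 CPM with control, and fell by 0.78, 0.59 and 0.93. MIR503HG, whose span holds miR-503, stood at 3.79, 3.37 and 3.67 CPM with mtAsn-1, 3.63, 2.53 and 3.5 CPM with mtAsn-2 and 2.97, 3.60 and 3.31 CPM with mtLys, against 5.53, 4.91 and 5.03 CPM with control. Control was the highest group for both genes, without overlap, and MIR503HG fell by 0.51, 0.67 and 0.65. The let-7 host MIRLET7BHG stood at 6.11, 3.66 and 5.14 CPM with mtAsn-1, 3.47, 3.94 and 4.53 CPM with mtAsn-2 and 5.15, 6.06 and 5.03 CPM with mtLys, against 6.65, 6.08 and 6.04 CPM with control. MIRLET7BHG did not overlap control with mtAsn-2 and did with the others. It was called lower with mtAsn-2 (-0.66, adjusted p = 0.000163), and with mtAsn-1 and mtLys it stood at -0.32 and -0.21 without a call.

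MIR100HG, the long gene that holds miR-100, let-7a and miR-125b (chr11:122028329-122422871, minus strand), was the best counted microRNA host. It stood at 71.1, 88.0 and 65.2 CPM with mtAsn-1, 41.0, 42.9 and 46.3 CPM with mtAsn-2 and 61.8, 61.2 and 60.7 CPM with mtLys, against 66.0, 54.9 and 55.9 CPM with control. The mtAsn-2 libraries lay below all others, while mtAsn-1 and control overlapped. MIR100HG was called higher in mtAsn-1 cells (0.33, SE 0.10, adjusted p = 0.0159) and lower in mtAsn-2 cells (-0.44, SE 0.10, adjusted p = 0.0027), and was not called in mtLys cells (0.05, adjusted p = 0.687). The mtAsn-1 call did not hold when control replicate 2 (adjusted p = 0.0588) or 3 (adjusted p = 0.0517) was left out. MIR4697HG had the same order, at 7.05, 7.20 and 6.32 CPM with mtAsn-1, 3.55, 3.94 and 3.99 CPM with mtAsn-2 and 6.71, 6.33 and 5.25 CPM with mtLys, against 6.27, 5.23 and 4.97 CPM with control. It was 0.30 higher with mtAsn-1 (adjusted p = 0.0377) and 0.53 lower with mtAsn-2 (log2 fold change -0.53, adjusted p = 0.000574). The MIR4697HG rise was lost with DESeq2 (adjusted p = 0.0803) and without control replicate 2 (adjusted p = 0.138), control replicate 3 (adjusted p = 0.122), mtAsn-1 replicate 1 (adjusted p = 0.0983) or mtAsn-1 replicate 2 (adjusted p = 0.0995).

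MIR17HG, the MYC-driven host of the miR-17 to miR-92a cluster, stood at 2.22, 1.94 and 1.83 CPM with mtAsn-1, 1.93, 2.25 and 2.25 CPM with mtAsn-2 and 1.21, 1.47 and 1.04 CPM with mtLys, against 1.38, 1.59 and 1.82 CPM with control. Only mtAsn-2 was called against control (0.44, SE 0.17, adjusted p = 0.0348), and that call was lost with DESeq2 (adjusted p = 0.132) and with no filter on low counts (adjusted p = 0.052). It was also lost without any 1 of control replicate 1 (adjusted p = 0.155), control replicate 2 (adjusted p = 0.0773), mtAsn-2 replicate 2 (adjusted p = 0.0858) and mtAsn-2 replicate 3 (adjusted p = 0.0883). MIR17HG was higher with mtAsn-2 than with mtLys by 0.77 (SE 0.17, adjusted p = 0.000429), and the libraries of those groups did not overlap. MIR1915HG stood at 4.58, 4.12 and 3.59 CPM with mtAsn-1, 4.85, 4.97 and 6.12 CPM with mtAsn-2 and 5.15, 4.95 and 4.62 CPM with mtLys, against 3.88, 4.09 and 3.48 CPM with control. Both mtAsn-2 and mtLys lay above control without overlap. It rose with mtAsn-2 (0.46, adjusted p = 0.00259) and mtLys (0.35, adjusted p = 0.0211), the second of which was lost with DESeq2 (adjusted p = 0.0606) and without control replicate 3 (adjusted p = 0.0773) or mtLys replicate 1 (adjusted p = 0.0763). MIR4453HG, whose exons overlap FBXW7 on the other strand, stood at 2.46, 2.80 and 2.55 CPM with mtAsn-1, 3.30, 2.94 and 2.13 CPM with mtAsn-2 and 1.64, 1.41 and 1.71 CPM with mtLys, against 2.502, 2.89 and 2.62 CPM with control. The mtLys libraries lay below all others, and only mtLys was called against control (-0.76, SE 0.17, adjusted p = 0.000593). It was higher with mtAsn-1 than with mtLys (0.71, adjusted p = 0.0167) and higher with mtAsn-2 than with mtLys (0.82, adjusted p = 0.000133). MIR29B2CHG, the host of the collagen-repressing miR-29 pair, stood at 1.72, 3.26 and 2.30 CPM with mtAsn-1, 1.27, 1.22 and 1.40 CPM with mtAsn-2 and 1.94, 1.76 and 1.79 CPM with mtLys, against 2.35, 1.89 and 1.60 CPM with control. The mtAsn-2 libraries lay below control, and MIR29B2CHG was called lower there (-0.61, adjusted p = 0.0126), though not when control replicate 1 was left out (adjusted p = 0.108).

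MIR34AHG, the host of the p53-induced miR-34a, stood at 0.30, -0.03 and 0.24 with adjusted p of 0.0694, 0.88 and 0.118. MIR210HG, the host of the hypoxia-induced miR-210, stood at 0.37 (adjusted p = 0.0275), -0.26 (adjusted p = 0.122) and 0.26 (adjusted p = 0.0963). The MIR210HG call with mtAsn-1 was lost with DESeq2 (adjusted p = 0.088), with no filter on low counts (adjusted p = 0.0511) and without control replicate 2 (adjusted p = 0.137) or mtAsn-1 replicate 3 (adjusted p = 0.126). A second entry of that gene on an alternate locus held 2596 reads over all libraries, against 1181 for the member, so reads may be split between the copies. With the copies summed, an alternative chosen after seeing the data, the mtAsn-1 call of MIR210HG was kept. Over all members and comparisons that alternative lost 0 calls and gained 1. MIR137HG and MIR762HG were called against control with none of the LNAs.

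Fewer members were called between mtAsn-1 and mtLys than between mtAsn-2 and either of them. Between mtAsn-1 and mtLys, 5 of 24 snoRNA hosts were higher with mtAsn-1 and none lower, where 2.12% of all genes were higher and 3.14% lower (5.26% called either way). They were SNHG5, SNHG16, SNHG6, SNHG3 and SNHG29, by 0.14 to 0.29. SNHG6 stood at 31.9, 33.9 and 29.03 CPM with mtAsn-1 and 26.1, 25.4 and 27.7 CPM with mtLys, without overlap. Of the 19 microRNA hosts, MIR3142HG, MIR4453HG and MIR17HG were higher and MIR4435-2HG lower (-0.16, adjusted p = 0.0474). Only SNHG5, SNHG16 and MIR3142HG kept their call in every alternative. Leaving out any of the 6 libraries cost 1 or more of the other calls, with adjusted p of up to 0.179 for SNHG3, 0.108 for SNHG6, 0.12 for SNHG29, 0.144 for MIR17HG, 0.0952 for MIR4453HG and 0.233 for MIR4435-2HG. With mtAsn-2 against mtLys, 16 snoRNA hosts were higher and 1, SNHG19, lower, where 22.9% of all genes were higher and 25.7% lower (48.6% either way), while 4 microRNA hosts were higher and 9 lower. The median log2 fold change of mtAsn-2 over mtLys was 0.34 for snoRNA hosts and -0.27 for microRNA hosts. With mtAsn-1 against mtAsn-2, 2 snoRNA hosts were higher and 15 lower, and 8 microRNA hosts were higher and 2 lower (24.6% higher and 21.9% lower among all genes, 46.5% either way). Among snoRNA hosts, SNHG4 (0.88) and SNHG20 (0.74) had the largest gaps of mtAsn-2 over mtLys after SNHG22 (1.09), whose call was lost without mtAsn-2 replicate 1 (0.65, adjusted p = 0.178) and with DESeq2 (adjusted p = 0.0762). MIR924HG was lower with mtAsn-2 than with mtLys, at -1.28 (SE 0.15, adjusted p = 4.26e-08).

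Levels between genes were compared per kilobase of exon, as CPM per kb. SNHG5 stood first in every group, at 298 ± 15.1, 309.5 ± 9.11 and 242 ± 11.8 CPM per kb for mtAsn-1, mtAsn-2 and mtLys, against 243 ± 14.2 with control. SNHG19 was the fourth snoRNA host in control, at 108 ± 19.3, overlapping its neighbours GAS5 and SNHG1. It took place 11 in mtAsn-1 cells, 14 in mtAsn-2 cells and 11 in mtLys cells, at 17.9 ± 1.69, 11.85 ± 1.61 and 17.7 ± 2.13 CPM per kb. Among microRNA hosts, MIR4435-2HG was highest with each tRNA LNA, at 9.75 ± 0.66, 7.46 ± 0.11 and 10.9 ± 0.049 CPM per kb with mtAsn-1, mtAsn-2 and mtLys, against 7.16 ± 0.15 with control. It overlapped MIR100HG in mtAsn-1 libraries, at 9.69 ± 1.53, and in control libraries, where MIR100HG averaged 7.64 ± 0.80.

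Genes around the hosts were read from lists chosen with earlier results of these data known. Among all genes 24.3% rose and 24.2% fell in mtAsn-1 cells, 24.1% rose and 27% fell in mtAsn-2 cells, and 24.6% rose and 23.9% fell in mtLys cells. Among 16 factors of nonsense-mediated decay, 1 rose and 7 fell in mtAsn-1 cells, 2 rose and 6 fell in mtAsn-2 cells, and 2 rose and 6 fell in mtLys cells, with medians of -0.09, -0.03 and -0.11. In each comparison 8 of the 16 were called, a share near the 48.5%, 51.1% and 48.5% called either way among all genes. RBM8A, a core protein of the exon junction complex that marks RNAs for decay, fell by 0.32, 0.31 and 0.28. SMG6, the endonuclease of the pathway, rose by 0.20 with mtAsn-1 and 0.21 with mtLys. Of 16 tested proteins that build or form snoRNA particles, 4 rose and 4 fell in mtAsn-1 cells, 9 rose and none fell in mtAsn-2 cells, and 2 rose and 3 fell in mtLys cells. The shares with mtAsn-1 are close to those of all genes. The assembly ATPases RUVBL2 and RUVBL1 rose with each, at 0.33, 0.58 and 0.20 for RUVBL2 and 0.15, 0.48 and 0.14 for RUVBL1 (mtAsn-1, mtAsn-2 and mtLys). NOLC1, a nucleolar chaperone of these particles, fell by 0.24 with mtAsn-1 and 0.20 with mtLys, and NAF1, an assembly factor of H/ACA particles, fell by 0.30 with mtLys.

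The counts of the next 3 lists stand beside the same all-gene shares (24.3% higher and 24.2% lower in mtAsn-1 cells, 24.1% higher and 27% lower in mtAsn-2 cells, 24.6% higher and 23.9% lower in mtLys cells). Of 10 genes of microRNA processing, 3 rose and 1 fell in mtAsn-1 cells, 3 rose and 4 fell in mtAsn-2 cells, and 4 rose and 1 fell in mtLys cells. AGO2, the slicing Argonaute, rose by 0.37 with mtAsn-1 and 0.33 with mtLys, and AGO3 fell by 0.20 and 0.28. With mtAsn-2, XPO5, the exporter of precursor hairpins, rose by 0.43 and AGO1 by 0.42, while DICER1 fell by 0.35 and DROSHA by 0.23. The other genes whose spans hold a snoRNA, largely protein-coding hosts outside the member names, had medians near 0. Of 199 tested, 61 rose and 45 fell in mtAsn-1 cells, 66 rose and 53 fell in mtAsn-2 cells, and 47 rose and 61 fell in mtLys cells, with medians of 0.00, 0.03 and -0.03. Examples with mtAsn-1 were rises of ERI3 and ITGB1 (0.64 and 0.46) and falls of KHDC4 and SUPT5H (-0.57 and -0.41). Those with mtAsn-2 were rises of IPO7 and RCC1 (0.53 and 0.63) and falls of NCOR1 and RPL27A (-0.61 and -0.55). For mtLys they were rises of EXT1 and ITGB1 (0.61 and 0.53) and falls of KHDC4 and RPL12 (-0.57 and -0.46). RPL27A and RPL12 are ribosomal protein genes, and whether such genes changed as a set was not tested. Of 752 other genes whose spans hold a microRNA, 291 rose and 146 fell in mtAsn-1 cells, 211 rose and 233 fell in mtAsn-2 cells, and 297 rose and 134 fell in mtLys cells, with medians of 0.08, 0.02 and 0.07.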

How the data were processed

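Per the file headers, the deposited table gives, without normalisation, the authors' read count of each gene in each library. The submitters' processing notes name FastQC, STAR 2.6.0a, featureCounts, DESeq2 and the build hg38. Those sources do not say whether counting used strand or how reads with several matches were handled. RNA was isolated with a Norgen kit and libraries were made with the TruSeq RNA Library Kit v2, per the labels' protocols. The table held 52897 lines, of which 38 broken ones were left out.

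Groups came from the labels. The counts went into edgeR 4.0.16 (R 4.3.3) with TMM factors and filterByExpr (minimum count 10, minimum total 15). The test was the robust quasi-likelihood F test, 1 model for the 12 libraries, with Benjamini-Hochberg adjusted p under 0.05. The common biological coefficient of variation was 0.0421. SEs were back-calculated from the fold change and F. The test was checked on simulated data. No library was a copy of another of its own group (chi-square per gene at least 2.43), and pairs from different groups were not given this check. Any member could be named, and per-library values were given for GAS5, SNHG1, MIR17HG, MIR100HG, MIR22HG, MIR31HG, MIR155HG and the 3 largest rises and falls per class and comparison. The members and lists were chosen with earlier results of these data known. Hosted small RNAs are those whose annotated span lies within the host's in the deposited table. The alternatives were a stricter filter or none, RLE factors, DESeq2 1.42.0, a fit of the compared groups alone, a replicate block, leaving out each library and, chosen after seeing the data, summed alternate-locus copies. Tables and plots were made with matplotlib 3.10.9, numpy 2.4.6, pandas 2.3.3 and Python 3.11.15. The result of 1 gene of the decay list is not reported here.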

Additional observations from a re-analysis of the deposited data

Results flagged for a closer look

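Members called in opposite directions against control with 2 LNAs, and differing in the direct test, are given here. SNHG16 was 0.69 higher on the log2 scale with mtAsn-2 than with mtLys (SE 0.05, adjusted p = 4.87e-13), with 105, 102 and 94.9 CPM in the mtAsn-2 libraries and 63.2, 61.4 and 62.1 CPM in the mtLys libraries. MIR100HG was 0.78 higher with mtAsn-1 than with mtAsn-2 (SE 0.10, adjusted p = 4.1e-05), with 3 of 3 mtAsn-1 libraries above all mtAsn-2 libraries. MIR4697HG was 0.83 higher with mtAsn-1 than with mtAsn-2 (SE 0.12, adjusted p = 1.78e-06), again with 3 of 3 libraries above. The rises of MIR100HG and MIR4697HG over control with mtAsn-1 were lost without single control libraries, as given above. The direct differences use the control libraries only through the shared estimate of spread.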

How the results depend on the processing

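No result of a member or class reversed under any alternative run. The counts of snoRNA hosts called lower were 18, 15 and 19 with mtAsn-1, mtAsn-2 and mtLys against control, 18 to 19, 15 and 19 when a library was left out, and 15, 11 and 15 under the stricter filter, which tested 18 snoRNA hosts and 9 microRNA hosts. Among fits that tested the gene, all 20 snoRNA host calls with mtAsn-1 remained, 18 of 19 with mtAsn-2 (SNHG22 was lost) and 19 of 20 with mtLys (SNHG8 was lost). For microRNA hosts, 7 of 11, 8 of 11 and 7 of 10 remained. DESeq2 called 2 microRNA hosts higher with mtAsn-2 against control, where edgeR called 4. Under the stricter filter the microRNA hosts called, higher and lower were 6, 5 and 1 with mtAsn-1 against control and 6, 2 and 4 with mtAsn-2 against control. With mtLys against control 5 were called and 1 was lower. With mtAsn-1 against mtLys 2 were called and 1 was higher, with mtAsn-2 against mtLys 7 were called, 2 higher and 5 lower, and with mtAsn-1 against mtAsn-2 5 were higher. In the compared groups alone, MIR4435-2HG was lost between mtAsn-1 and mtLys, leaving 0 microRNA hosts lower.

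Leaving out a library moved these counts, given as ranges. Against control, microRNA hosts called with mtAsn-1 were 7 to 12 and higher 4 to 9 (the lowest without control replicate 2), microRNA hosts higher with mtAsn-2 were 2 to 4, and snoRNA hosts higher with mtLys were 0 to 1. Between mtAsn-1 and mtLys, snoRNA hosts called and higher were 2 to 5, and microRNA hosts called were 2 to 4, higher 1 to 3 and lower 0 to 1. Between mtAsn-1 and mtAsn-2, microRNA hosts lower were 1 to 2. Same-numbered libraries did not deviate together (correlations of -0.29 to 0.14 over 18 pairs, 5 above 0.1), so the numbers gave no sign of pairing. Differently numbered libraries of different groups ranged from -0.33 to 0.39 over 36 pairs, 13 above 0.1. Whether a factor outside the labels links some of them was not tested. With the replicate block 18, 15 and 19 snoRNA hosts were lower with mtAsn-1, mtAsn-2 and mtLys against control, and 0 microRNA hosts were lower between mtAsn-1 and mtLys, where 1 was without it. Depth limits MIR181A2HG, SNHG22 and SNHG28, at mean counts near 10.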
